A study of Arabidopsis thaliana with 6 samples.

Results

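*ATH1* (AT4G32980) was examined as a target of its own product, by taking its entry in the authors' table of ATH1 targets and every called peak that overlapped its listed window, in all 6 ChIP-seq libraries. The gene is 1 of 629 in that table, and its window held 3 of the 5483 deposited peaks. ChIP-seq recovers DNA that was crosslinked to a protein, so a peak marks a stretch where the tagged protein, or something it was attached to, was more frequent than in the DNA around it. The ATH1-GFP plants were *ath1-3* mutants, which carry a T-DNA insertion in *ATH1*, transformed with *pATH1:ATH1-GFP*. The controls were wild-type plants without GFP, and there were 3 biological replicates of each genotype. All 6 samples were seedling shoots with the leaves taken off, and chromatin was pulled down with microbeads against GFP. The library labels call the wild type Landsberg *erecta* and give 16 h of light for 2 weeks. By contrast, the series description names Columbia, and the methods describe Col-0 grown for 3 weeks under short days. These conflicts in strain, day length and age could not be settled from the sources used here.

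ATH1 is a homeodomain protein of the BELL type. BELL proteins belong to the TALE class together with the KNOX proteins, with which they pair, and such pairs bind DNA and are known for keeping the shoot meristem active and for setting organ boundaries. *ATH1* is expressed in the shoot apex and at the base of leaves, where it is known to restrain growth of the stem. A transcription factor that occupies its own promoter can feed back on its own expression, and binding data of this kind measure the occupancy and not the expression.

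The transgene bears on this locus directly, because it adds the promoter and the coding sequence in another place of the genome. According to the methods, the transgene carries 3.2 kb of the *ATH1* promoter in front of a synthetic *ATH1* coding sequence joined to GFP, and all 3 libraries came from a single line with 1 copy of it. The coding sequence was made synthetic to remove BsaI sites. Each ATH1-GFP plant therefore had the promoter and the coding sequence at the native locus and in the transgene, and wild-type plants had the native ones only. Tags from either copy map to the same position, so occupancy of the native promoter, occupancy of the transgene and the additional copy of the DNA itself cannot be told apart in these peak lists. No library of input DNA was analysed here.

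The listed window of *ATH1* runs over chr4:15914337-15920230 on TAIR10 and is 5894 nt long. The window of its listed neighbor AT4G32990, which encodes a WD40 repeat protein, runs over chr4:15918044-15924158. Both windows contain the 2187 nt of chr4:15918044-15920230, called the window overlap here. The files give no strand. By the header of the authors' table a window reaches 3000 nt upstream and 1500 nt downstream of the coding sequence, and since the window overlap is longer than the downstream allowance it was read as the upstream side of *ATH1*. The same reasoning would make it the upstream side of AT4G32990 as well. In the RefSeq annotation AT4G32990 is the next protein-coding neighbor on this side, with a gene for a long noncoding RNA, AT4G08715, in between. AT4G32970 lies on the other side of *ATH1* and was not in the authors' table.

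Each ATH1-GFP library had 1 peak in the window of *ATH1* and no wild-type library had any. In ATH1-GFP replicate 1 the peak covered chr4:15917851-15919506, a length of 1656 nt, with its summit at 15918314. In ATH1-GFP replicate 2 it covered chr4:15918120-15919650, or 1531 nt, with its summit at 15918410. The peak of ATH1-GFP replicate 3 was the longest of the 3, covering chr4:15917803-15919525, or 1723 nt, with its summit at 15918335. The 3 peaks thus lay over one another, with starts that ranged over 317 nt, ends that ranged over 144 nt and summits that ranged over 96 nt. Lengths averaged 1637 ± 97.4 nt (SD, n = 3).

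**Figure D1:**
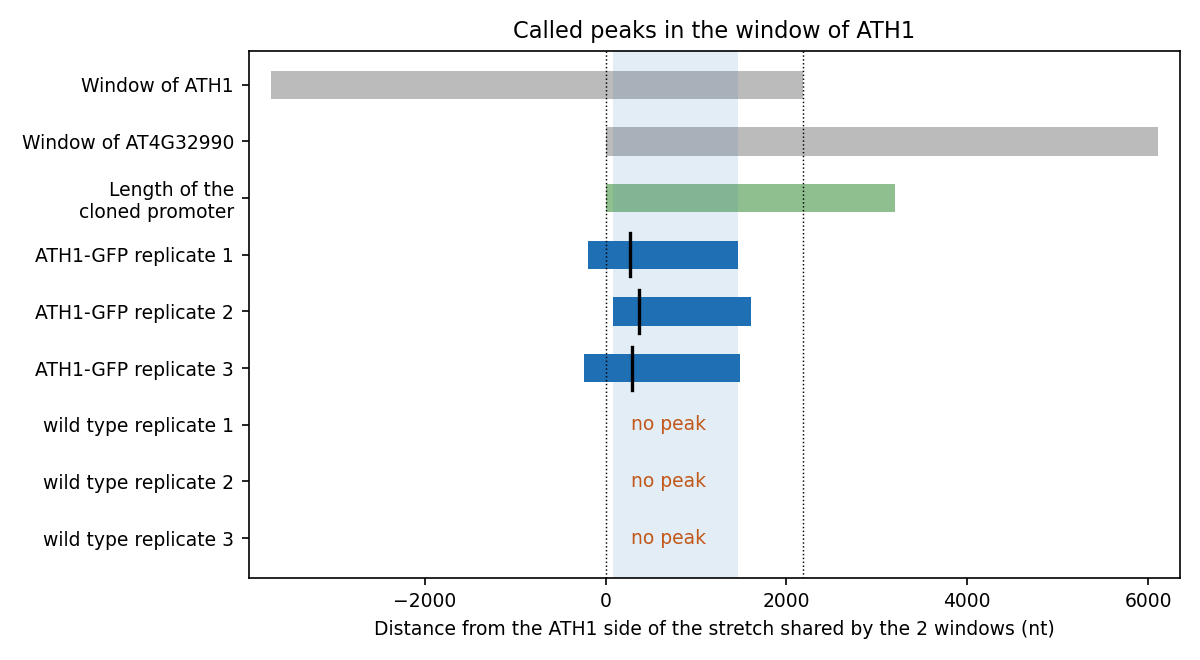
Called peaks in the window of *ATH1* in each library, drawn by distance in nt from the *ATH1* side of the window overlap (dotted lines), with ATH1-GFP libraries above wild-type libraries. Blue bars are peaks, black ticks are summits and the pale band is the 1387 nt found in all 3 ATH1-GFP libraries; gray bars are the authors' windows, of which that of *ATH1* begins at the left, and the green bar shows 3.2 kb laid from the zero point, not a mapped fragment. The 3 ATH1-GFP peaks coincide and end well inside the green bar, and the wild-type libraries have no peak.

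Peak height was measured as the pileup, that is, how many extended tags cover the summit. The pileup was 132 tags in ATH1-GFP replicate 1, 136 in replicate 2 and 166 in replicate 3, out of 10451892, 10194418 and 15584829 tags kept. Scaled to depth this was 12.6, 13.3 and 10.7 per 1000000 tags, so the library with the highest raw pileup had the lowest scaled one. With tags of 300 nt and 1 tag kept per position, the highest pileup in each of these libraries was 600, and the summit at *ATH1* stood at 22.0%, 22.7% and 27.7% of it.

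Fold enrichment is the ratio of the pileup to the background that MACS estimated from the same library. At *ATH1* it was 3.27 in ATH1-GFP replicate 1, 3.42 in replicate 2 and 2.64 in replicate 3, with a mean of 3.11 ± 0.41 (SD, n = 3). The −log10 q values were 27.3, 30.0 and 24.0, far above the value of 3 that corresponds to the false-discovery rate of 0.001 used by the authors. The authors' own averages for *ATH1*, 3.11 for fold enrichment and 27.1 for −log10 q, equal the means of these peaks. They put the gene at rank 78 by fold enrichment and 88 by −log10 q among the 629 listed genes. AT4G32990 has the same averages, because the same 3 peaks were assigned to both genes, and the peak lists do not separate them.

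The lower value of ATH1-GFP replicate 3 was not particular to *ATH1*. To set the locus beside the rest of the genome, a shared region was defined as a stretch that 1 peak of every ATH1-GFP library covered, and a free region as a shared region without a wild-type peak, both at a false-discovery rate below 0.001. Of 721 shared regions 309 were free (42.9%), and that of *ATH1* was among them. In 282 of the 309 free regions (91.3%) the lowest of the 3 fold enrichments was that of replicate 3, the library with the most tags.

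The comparison of genotypes was made on the bases of the window that lay under peaks, a value that every library has. There were 1656, 1531 and 1723 such bases in ATH1-GFP libraries, against 0, 0 and 0 in wild-type libraries. The groups did not overlap, the difference was 1637 nt, and p was 0.1 by a two-sided exact permutation test, the smallest that 3 against 3 allows. Such a separation is common among the listed genes, since the authors chose them on these libraries: 563 of the 629 windows (89.5%) had more bases under peaks in every ATH1-GFP library than in every wild-type library. Windows without any deposited wild-type peak numbered 413 (65.7%). The mean of 1637 nt ranked 37 among all 629 windows, whose median was 506 nt.

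Absence from the wild-type lists has to be read with their depth. ATH1-GFP libraries kept 10194418 to 15584829 tags, and wild-type replicates 1, 2 and 3 kept 3450182, 13518524 and 6689302. Among peaks whose background was the library average, the weakest that passed in wild-type replicates 2 and 3 had fold enrichments of 1.72 and 2.06, both below every value at *ATH1* in ATH1-GFP plants. In wild-type replicate 1, the shallowest library, the weakest was 2.56, only slightly below the 2.64 of ATH1-GFP replicate 3. These limits hold only for a background at the library average. Where the background was higher, peaks passed down to 1.26, 1.23 and 1.31 in wild-type replicates 1, 2 and 3. The limit at *ATH1* itself in wild-type libraries was not determined. The additional copy of promoter and coding sequence, the difference in genotype and the wild-type strain named in the labels all separate the groups in the same way and cannot be told apart.

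Among free regions, length set *ATH1* apart more than height did. The free region, common to all 3 ATH1-GFP libraries, covered chr4:15918120-15919506 and was 1387 nt long, rank 3 among 309 free regions and 3.96 times their median of 350 nt. By mean fold enrichment it ranked 44, against a median of 2.29 over the free regions. Within libraries, the peak at *ATH1* was 3.28, 3.31 and 4.03 times as long as the median peak of the free regions. Peaks at least as long, its own included, numbered 7 of 303, 13 of 303 and 2 of 306 among the peaks of free regions in ATH1-GFP replicates 1, 2 and 3, and 73 of 1593, 82 of 1226 and 46 of 990 among all peaks. Among all peaks, length and height were closer. The length percentiles were 95.4, 93.3 and 95.4 in ATH1-GFP replicates 1, 2 and 3, and those of fold enrichment 91.0, 92.3 and 90.0. These lengths were in view when the locus was chosen and are given without a test.

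Stretches of this length were more frequent among the regions that also had a wild-type peak. Of the 412 shared regions with one, 55 (13.3%) were at least as long as that of *ATH1*, against 3 of 309 (0.971%) among free regions, *ATH1* included. Median lengths were 553 nt with a wild-type peak and 350 nt without.

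**Figure D2:**
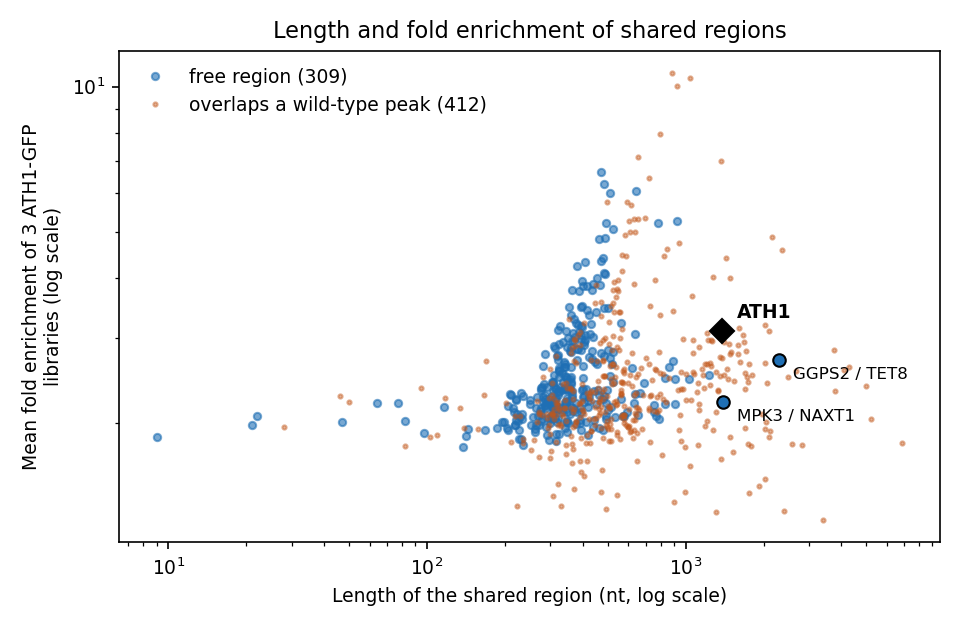
Length of each shared region in nt (horizontal, log scale) against the mean fold enrichment of the 3 ATH1-GFP libraries (vertical, log scale), for 309 free regions in blue and 412 regions that overlap a wild-type peak in orange. *ATH1*, the black diamond at 1387 nt and 3.11, lies to the right of nearly all free regions and above the middle in height, with the regions of *GGPS2* and *TET8* and of *MPK3* and *NAXT1* as the only free regions farther right.

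Only 2 free regions were longer. The longest, 2292 nt at chr2:10135118-10137409, lay in the windows of *GGPS2*, which encodes a geranylgeranyl diphosphate synthase, and *TET8*, which encodes a tetraspanin. Its fold enrichment was 2.70 ± 0.16, and its 3 summits ranged over 1554 nt. The second, 1392 nt at chr3:16757670-16759061, lay in the windows of the MAP kinase gene *MPK3* and the nitrate exporter gene *NAXT1*, and its fold enrichment was 2.21 ± 0.27 (SD, n = 3), with summits that ranged over 122 nt. *ATH1* had the highest mean fold enrichment of these 3 long regions. Its summits ranged over 96 nt, close to the median of 84 nt over all free regions, so its long peaks had one common position of the maximum.

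Within each peak at *ATH1* the summit lay nearer to the end on the *ATH1* side, and the longer side pointed toward AT4G32990. Whether the summits lay inside the gene model of *ATH1* was not determined. The summits were 270, 366 and 291 nt from the *ATH1* side of the window overlap. The distance from the summit to the *ATH1* end of the peak was 463, 290 and 532 nt, and to the far end 1192, 1240 and 1190 nt in ATH1-GFP replicates 1, 2 and 3. The longer side was 2.57, 4.28 and 2.24 times the shorter, where the medians over peaks of free regions were 1.37, 1.43 and 1.46. Thus the peaks were lopsided in the same direction in all 3 libraries, and 81.4% to 93.1% of the peaks of free regions were no more so.

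The promoter fragment of the transgene sets a scale for these lengths. Laid from the *ATH1* side of the window overlap, 3200 nt would cover all of that overlap and pass its far end. The far ends of the 3 peaks were 1463, 1607 and 1482 nt from the same point, so they stopped 1737, 1593 and 1718 nt short of the end of such a fragment. The peaks also left 724, 580 and 705 nt of the window overlap uncovered on the side of AT4G32990. The true end points of the cloned fragment are not given in the sources used here. If it begins at a start codon inside the gene rather than at this point, it reaches less far and the distances are shorter by the length in between.

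Toward the gene, the peaks of ATH1-GFP replicates 1 and 3 passed the edge of the window overlap by 193 and 241 nt, and that of replicate 2 began 76 nt inside it. Between 86.0% and 100% of each peak lay within the window overlap. In the RefSeq annotation the free region begins inside the gene model of *ATH1*, so the window overlap is not all outside the gene. When the window was limited to bases not shared with AT4G32990, the difference between ATH1-GFP and wild-type libraries was 145 nt, with p = 0.4 by the exact permutation test, since ATH1-GFP replicate 2 then has 0 bases as all wild-type libraries do. Of the 3707 nt of the window on the gene's side, 3466 were under no peak of any library. This side holds the gene, whose coding sequence the transgene also carries as an additional copy.

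The background that MACS assigned to the *ATH1* peaks can be recovered from pileup and fold enrichment. It was 39.7, 39.1 and 62.2 tags, or 1.14, 1.15 and 1.20 times the average of ATH1-GFP libraries 1, 2 and 3. For 44.9% to 48.1% of the peaks in these libraries the background equaled the library average. Among peaks of free regions, the excess at *ATH1* was at percentiles 79.5, 83.5 and 96.7. MACS takes this value over 10000 bp around the summit, a span that includes the peak itself and the stretch present in the additional copy, and the share of either was not tested.

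No other peak lay near the locus in either genotype. The nearest was 100242, 100293 and 97332 nt from the free region in ATH1-GFP libraries, and 428381, 97002 and 97329 nt in wild-type libraries, with none within 50 kb in any library. For comparison, the median distance from a peak of a free region to the next peak of its library was 13583, 20100 and 34050.5 nt in ATH1-GFP replicates 1, 2 and 3.

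Fold enrichment at *ATH1* was above the middle of the free regions in every library. It exceeded their median by 0.72 in ATH1-GFP replicate 1, where the median was 2.55, by 1.00 in replicate 2, where it was 2.42, and by 0.68 in replicate 3, where it was 1.96. The mean excess was 0.80 ± 0.17 (SD, n = 3), in the same direction in 3 of 3 libraries. Flipping the signs of the 3 differences in an exact two-sided permutation test gave p = 0.25, the smallest that 3 libraries allow. The locus was chosen with earlier results of these same libraries known, so this p-value is only a description. The percentiles of *ATH1* among peaks of free regions were 77.9, 87.1 and 88.2, so many free regions were enriched more strongly.

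**Figure D3:**
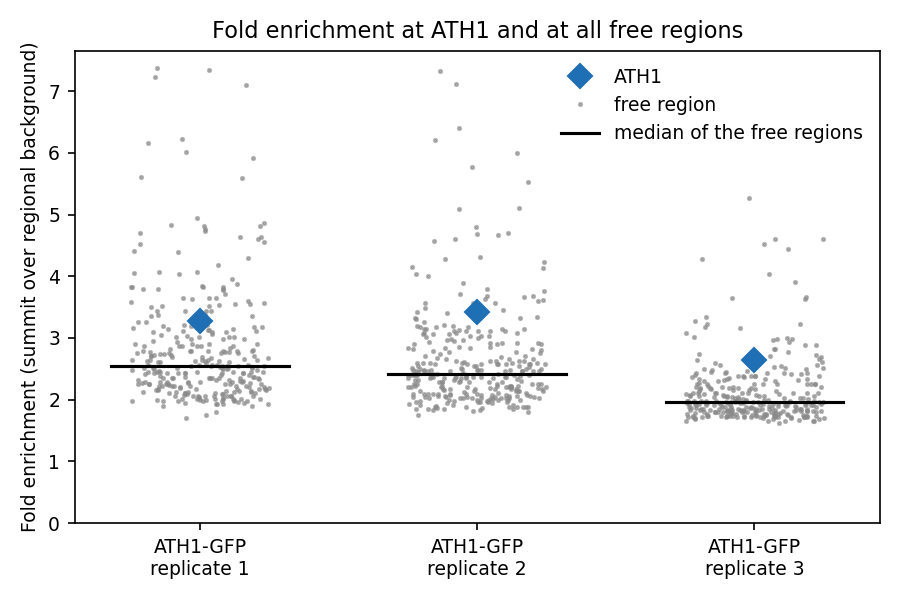
Fold enrichment, the ratio of summit pileup to background, in each of the 3 ATH1-GFP libraries for *ATH1* (blue diamonds) and for all 309 free regions (gray dots), with horizontal lines at the medians of the free regions. *ATH1*, at 3.27, 3.42 and 2.64, lies above the line in every library and within the upper part of the cloud.

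The free regions with fold enrichments most like those at *ATH1*, by the Euclidean distance over the 3 ATH1-GFP libraries, were far shorter. The nearest, at a distance of 0.26, lay in the windows of *XBAT35*, which encodes a ubiquitin ligase, and *LSH4*, a gene active at organ boundaries. It had 3.38, 3.34 and 2.42, on a region of 393 nt. The next, at 0.29, belonged to *LOG8*, of a family of cytokinin-activating enzymes, and AT5G11960, with 3.40, 3.17 and 2.57 on 407 nt. The third, at 0.33, belonged to AT1G69430, with 3.56, 3.26 and 2.66 on 397 nt. At a like height, the free region of *ATH1* was the longest of the 4. The longer free regions, of *GGPS2* and *TET8* and of *MPK3* and *NAXT1*, lay at distances of 0.80 and 1.62. This order therefore followed from the length rank of *ATH1* and adds nothing to it.

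*ATH1* was the only BELL gene in the authors' table. Of 22 TALE genes examined, 4 were listed (18.2%), or 3 of 21 (14.3%) without *ATH1*, which was chosen as a listed gene, beside 620 of 37899 RefSeq genes (1.64%). That total includes noncoding genes, so it is not the share among protein-coding genes alone. None of the 12 other BELL genes was listed, whereas 3 of the 9 KNOX genes were, namely *KNAT1*, *KNAT2* and *KNAT6*. *KNAT1*, also called *BREVIPEDICELLUS*, shapes stems and flower stalks, and *KNAT6* acts at meristem and organ boundaries, partly redundantly with its close relative *KNAT2*. All 4 genes had a free region, so none of these regions overlapped a wild-type peak. This is the usual state of a listed gene: 418 of all 629 listed windows had no wild-type peak at a false-discovery rate below 0.001.

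The KNOX genes had peaks of common length. *KNAT1* had fold enrichments of 2.99, 3.20 and 1.96 in ATH1-GFP replicates 1, 2 and 3, with a mean of 2.72 ± 0.66, on a free region of 436 nt, which is in the listed window of AT4G08151 too. *KNAT2* had 4.63, 4.03 and 2.89, a mean of 3.85 ± 0.885 (SD, n = 3), on 414 nt. *KNAT6* had 3.65, 3.12 and 2.49, a mean of 3.09 ± 0.58, on 387 nt. By length, *ATH1* with its 1387 nt stood apart from all 3. Length was in view when the locus was chosen, so this is a description only.

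Height did not order the 4 genes the same way as length. Fold enrichment at *ATH1* was higher than at *KNAT1* in 3 of 3 libraries, by 0.39 ± 0.25, and lower than at *KNAT2* in 3 of 3, with a difference of −0.74 ± 0.57 (SD, n = 3). Both gave p = 0.25 by the exact sign-flip test, again the smallest possible. The difference from *KNAT6* was 0.02 ± 0.36, with p = 1.0 by this exact test, and did not exceed the spread between libraries. Its direction turned without ATH1-GFP replicate 2, at −0.12, and without replicate 3, at −0.04.

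**Figure D4:**
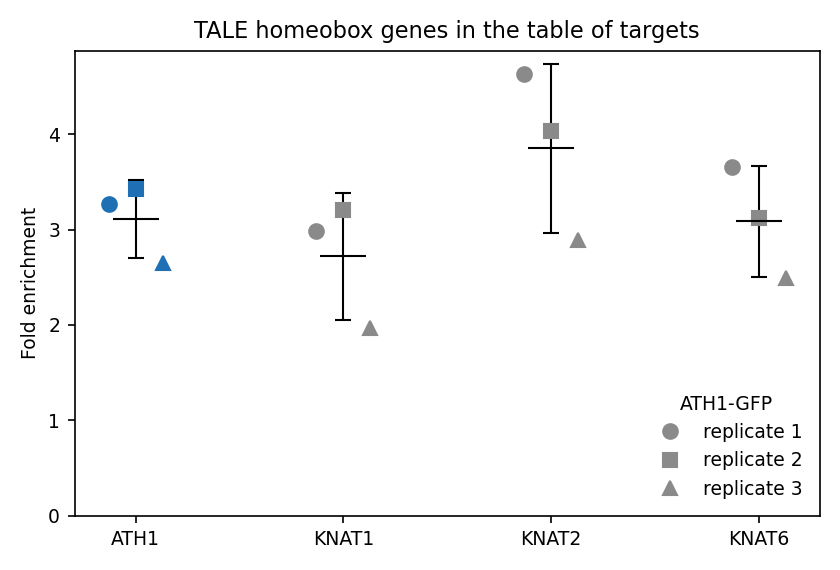
Fold enrichment of the 4 TALE homeobox genes in the table of targets, in ATH1-GFP replicates 1, 2 and 3 (symbols), with the mean as a horizontal line and the SD as an error bar (n = 3). *ATH1*, in blue, lies between *KNAT1* and *KNAT2* and level with *KNAT6*.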

How the data were processed

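The authors mapped single-end reads to TAIR10 with Bowtie2 and ran MACS 2.0.10.20130915 on every library by itself, without a control library, with tags extended to 300 nt, 1 tag kept per position and a q cutoff of 0.05. The version and settings of the mapping are not given in the sources used here. In the authors' deposited lists the pileup is a signal not scaled for depth, and fold enrichment is a ratio, (pileup + 1) over (background + 1). The deposited −log10 p and −log10 q values were computed by the authors with MACS. The score in the deposited lists is a rounded multiple of −log10 q and was not used. In the authors' table of targets, fold enrichment and −log10 q are averages over ATH1-GFP libraries.

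Peaks below a false-discovery rate of 0.001 were kept, and overlaps of at least 1 bp counted. The code that finds overlaps was checked on simulated peaks with known positions, which is no test of significance. Because no control entered the calls, fold enrichment was not compared between genotypes. Genotypes were compared with an exact permutation test, and *ATH1* with other regions within libraries by an exact sign-flip test. Peak lists hold no values where nothing was called, and depth and the number of replicates limit the precision. Python 3.11.15, numpy 2.4.6, scipy 1.17.1 and pandas 2.3.3 were used. Symbols came from RefSeq (TAIR10.1), in which 620 of 629 listed loci were found. Its coordinates served only to order neighboring genes and to place the window edge and the free region against gene models. No promoter sequence or motif was analysed.

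The locus, the gene lists and the rules were chosen with earlier results of these data known. Named genes were *ATH1*, its annotated neighbors, TALE genes in the authors' table, genes of free regions at least as long, and the 3 free regions most like *ATH1* in fold enrichment. AT4G08151, AT4G08715 and AT5G11960 are named only because they share a region or lie in between. Alternatives were false-discovery rates of 0.0001 and of the deposited lists, peaks in at least 2 libraries, an overlap of 50% of the shorter peak, other treatments of wild-type peaks, pileup per 1000000 tags, other reference peaks, a smaller window, replicate numbers as pairs, and leaving out each library.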

Additional observations from a re-analysis of the deposited data

How the results depend on the processing

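The direction of the excess over the free regions was kept under every alternative, and so was the count of 4 TALE genes with a free region. The difference between genotypes could not change direction, because no deposited wild-type peak lay in the window of *ATH1*, which was chosen as a listed gene. The differences from KNOX genes were recomputed by alternatives chosen after seeing the data. Without single ATH1-GFP libraries, the difference was 0.25 to 0.48 from *KNAT1*, lowest without replicate 3, and −0.99 to −0.43 from *KNAT2*, smallest in size without replicate 1. That from *KNAT6* was −0.12 to 0.23, and it was reversed to −0.12 without replicate 2 and to −0.04 without replicate 3. As pileup per 1000000 tags the means of the 3 differences kept their directions, at 2.99 from *KNAT1*, −0.88 from *KNAT2* and 1.63 from *KNAT6*. The exact sign-flip test gave p = 0.25, 0.75 and 0.5. In this unit the single libraries therefore did not all share a direction for *KNAT2* or for *KNAT6*. The length of the free region was 1675 nt with peaks of at least 2 ATH1-GFP libraries, in place of 1387 nt, and between 1387 and 1656 nt when single libraries were left out, the higher value without ATH1-GFP replicate 2. Leaving out single libraries gave 1593.5 to 1689.5 nt under peaks (exact permutation p = 0.2), a mean fold enrichment of 2.96 to 3.35, an excess over the free regions of 0.76 to 1.02, and a mean length percentile of 94.3 to 95.4. The length percentile does not use wild-type libraries. Mean pileup was 12.2 per 1000000 tags when it took the place of fold enrichment, which is another unit. The mean length percentile was 97.6 among peaks of free regions, against 94.7 among all peaks. With equal replicate numbers taken as pairs, the difference of 1637 nt under peaks had p = 0.25 by an exact sign-flip test, the smallest possible. Over 185 regions with peaks in all 6 libraries, equal numbers gave r = 0.41, −0.68 and −0.09. The highest value was that of an unequal pair, 0.74 for ATH1-GFP replicate 3 with wild-type replicate 2, so equal numbers were not read as pairs. The lists cannot show enrichment below what each library could call. At a background equal to the library average, this limit was highest in wild-type replicate 1. Neither an input library nor reads that tell the transgene from the native promoter were analysed here.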
